A study of Homo sapiens and Mus musculus with 13 samples.

Results

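The human major histocompatibility complex (MHC) was followed here through 6 lists of R-loop peaks on chromosome 6 from 28 to 34 Mb of the hg19 build. All peaks lying in this window were taken, 1191 of the 325035 peaks in the human lists, together with 511 peaks that the K562 list places on alternate haplotype sequences of chromosome 6. The window holds 158 peaks of K562 DRIP-seq, 323 of NT2 DRIPc-seq, 232 of NT2 DRIP-seq after digest B, 128 of NT2 DRIP-seq with RNase A, 3 of NT2 DRIP-seq with RNase H and 347 of NT2 DRIP-seq after digest A.

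K562 cells come from a human erythromyeloblastoid leukaemia, and NT2 cells from a testicular embryonal carcinoma and are pluripotent. In digest A, used per the labels for every list except digest B, the enzymes were SspI, XbaI, BsrGI, EcoRI and HindIII. For digest B, BamHI, NcoI, ApaL1, NheI and PvuII were used. The labels name no treatment of the living cells. Each list stands for 1 library, except that of DRIPc-seq, which the labels name for 2 samples, so differences between lists come without replicates. Only positions are listed, without read counts, so depth is unknown and a missing peak means only that none was listed. A cell line, treatment or digest cannot be told apart from the library that carried it.

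An R-loop forms when RNA pairs with the DNA strand it was copied from and leaves the other DNA strand single. DRIP-seq recovers such RNA:DNA hybrids with an antibody after restriction digestion and sequences the DNA without strand, whereas DRIPc-seq sequences the RNA strand and so gives each peak a direction. RNase H destroys the RNA of a hybrid and serves as the negative control, while RNase A degrades free RNA. The MHC is a gene-dense stretch of the short arm. Its class I part carries genes of antigen presentation to cytotoxic T cells among many unrelated housekeeping genes. Its class III part is packed with short genes that include complement factors, tumour necrosis factor and heat shock proteins, and its class II part carries the HLA-DR, HLA-DQ and HLA-DP genes and the peptide transporter TAP. These genes are background only, since no hg19 annotation was used here and no peak was assigned to a gene.

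Along the chromosome, class I was taken as chr6:29600001-31500000, class III as chr6:31500001-32200000 and class II as chr6:32200001-33400000. The stretch of the window before class I is called the telomeric flank and that after class II the centromeric flank. A peak belongs to the part that holds its midpoint. Brackets hold the exact 95% interval of a share (Clopper-Pearson), which covers counting error only, as peaks of 1 list are not independent replicates.

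With both digests of NT2, the MHC was the most densely covered of the 27 windows of 6 Mb that were ranked on chromosome 6. Digest B peaks covered 19.7% of the window and 5.09% of the rest of the chromosome, a ratio of 3.88, and digest A peaks covered 16.4% of the window and 2.85% of the rest, a ratio of 5.75. In both lists the window ranked first of 27 consecutive windows of 6 Mb, whose median cover was 3.99% in digest B and 2.05% in digest A. DRIPc peaks covered 14.1% of the window and 8.54% of the rest, which put it at rank 3. K562 peaks on chromosome 6 itself covered 6.62% of the window and 2.39% of the rest. RNase A peaks covered 4.98% and 1.97%, and the window had rank 3 in K562 and in RNase A. With RNase H only 0.0668% of the window was covered, below the 0.198% of the rest, and the window ranked 23 of 27.

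The peaks of the window were also longer than those elsewhere on the chromosome in each DRIP list of NT2 other than RNase H. Median length was 3620 bp in the window and 2634 bp in the rest with digest B, 1565 bp and 1415 bp with RNase A, and 1958 bp and 1071 bp with digest A. In K562 the medians were 1654 bp and 1219 bp. For DRIPc they were 1892 bp and 1856 bp.

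**Figure D1:**
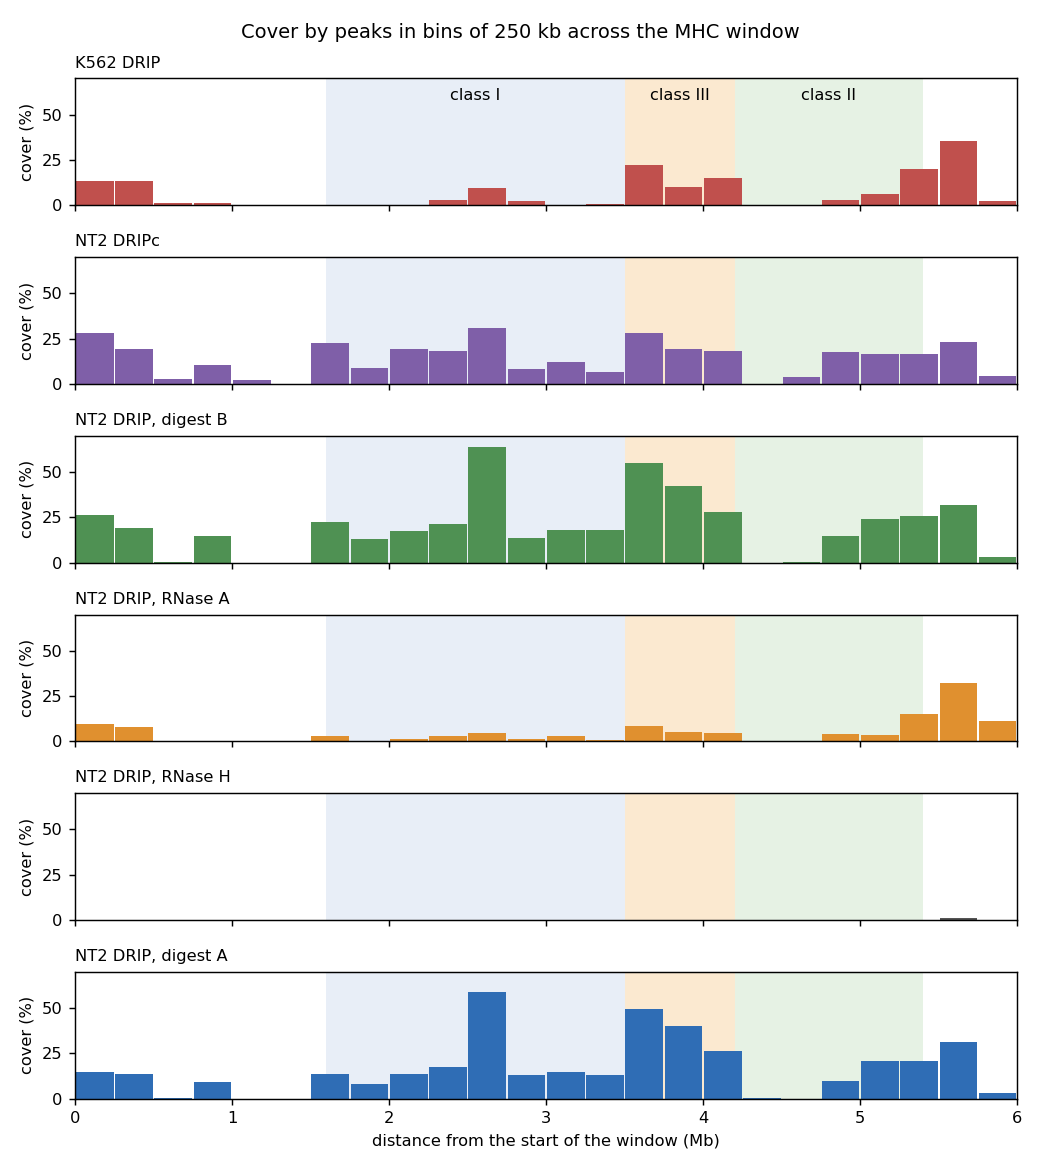
Percent of each bin of 250 kb covered by peaks, against distance from the start of the MHC window in Mb, with 1 panel for each list and the class I, class III and class II parts shaded. NT2 digest B reaches 64.1% and digest A 59.1% in 1 bin near the middle of class I, and both are high again at the start of class III, at 55.1% and 49.3%. K562 reaches 9.45% at most in class I, 22.1% in class III and 35.5% near the right end of the window, where RNase A reaches 32.1%. The K562 panel leaves out its peaks on haplotype sequences.

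Class III carried the densest R-loop signal of the 3 classes in all lists other than RNase H. K562 peaks on chromosome 6 itself covered 16.9% of class III, 2.06% of class I and 4.44% of class II. DRIPc peaks covered 23.6% of class III, 14.8% of class I and 10.2% of class II. With digest B the same parts were covered to 44.7%, 23.0% and 12.1%, after RNase A to 6.45%, 2.11% and 3.67%, and with digest A to 41.4%, 18.9% and 9.59%. Class III was 8.21 times as covered as class I in K562, 3.06 times after RNase A and 2.19 times in digest A. Peaks were also closest together there, with 123 digest A peaks per Mb in class III, 68.4 in class I and 34.2 in class II, against 18.4 in the rest of the chromosome.

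K562 and RNase A stood furthest below digest A in class I. Relative to the cover by digest A in class I, K562 stood at 0.109 and RNase A at 0.111, while DRIPc stood at 0.780 and digest B at 1.21. In class III, K562 stood at 0.409 and RNase A at 0.156, so RNase A was low in both classes. In class II they stood at 0.463 and 0.382. In the rest of chromosome 6, K562 stood at 0.840 of digest A and RNase A at 0.690. Class I was covered to 0.860 times the level of the rest of the chromosome in K562 and to 1.07 times after RNase A, where digest A gave 6.65 times. These K562 values count peaks on chromosome 6 itself only. Its peaks on haplotype sequences, placed as described below by shifts fitted to digest A, covered 7.66% of class I and 44.2% of class III. In the centromeric flank the order was different, with K562 at 18.9%, RNase A at 20.2% and digest A at 16.8%.

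**Figure D2:**
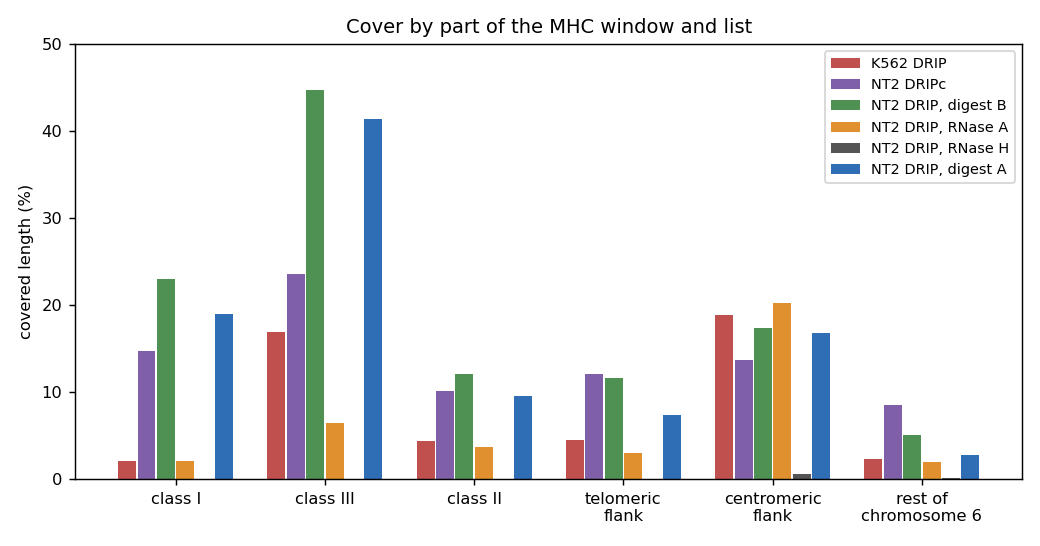
Percent of each part of the MHC window, and of the rest of chromosome 6, covered by the peaks of each list, 1 bar a list without error bars because there is 1 list a group. In class I the K562 and RNase A bars stand at 2.06% and 2.11% beside 18.9% for digest A, and in the centromeric flank at 18.9% and 20.2% beside 16.8%. The K562 bars leave out its peaks on haplotype sequences.

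Most digest A peaks of the window were also listed in NT2 with other enzymes and in the RNA strand. Of the 347 digest A peaks, 300 overlapped digest B by 1 bp or more, or 86.5% (82.4 to 89.9%), against 75.2% (73.6 to 76.7%) in the rest of chromosome 6 and 76.8% over the whole list. A DRIPc peak was found at 258 of them, or 74.4% (69.4 to 78.9%), against 70.4% (68.7 to 72.0%) in the rest of the chromosome and 61.4% over the whole list. The share found with digest B was 89.2% in class I, 83.7% in class III and 85.4% in class II, and that found in DRIPc was 76.9%, 64.0% and 75.6%, and for each list the intervals of the 3 classes overlapped. The reverse share stood further apart from its surroundings: 254 of 323 DRIPc peaks in the window touched a digest A peak, or 78.6% (73.8 to 83.0%), against 37.3% (36.0 to 38.6%) in the rest of chromosome 6 and 45.6% over the whole list. By part, it was 87.5% in class III, 81.0% in class I and 59.3% (45.7 to 71.9%) in the telomeric flank, and class II had 36 of 48. Digest A peaks covered 16.4% of the window and 2.85% of the rest of chromosome 6, which makes a touch easier in the window. The shares were not adjusted for this.

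Few class I peaks of NT2 were listed in K562. Of 130 digest A peaks in class I, 16 touched a K562 peak, or 12.3% (7.20 to 19.2%), against 48.8% (47.0 to 50.6%) in the rest of chromosome 6 and 54.7% over the whole list. The class I share was 6.15% where 50% of a peak had to be covered. It was 36.2% with K562 peaks on haplotype sequences added, placed as described below by shifts fitted to digest A itself. Whether the NT2 reads were aligned with those sequences present is not known here, which limits what a peak missing from either list means. The share was 44.2% (33.5 to 55.3%), or 76.7% with the haplotypes, of 86 peaks in class III and 41.5% (26.3 to 57.9%) of 41 peaks in class II. In the centromeric flank 24 of 25 peaks were found, or 96.0% (79.6 to 99.9%). The intervals of class I and class III did not overlap, and those of class III and class II did. Digest B peaks gave the same order, with 16.3% of 86 in class I and 44.6% of 56 in class III found in K562, against 50.4% over the whole list.

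The low share in class I was also measured among long peaks. Class I peaks of digest A had a median of 2257 bp, against 1071 bp in the rest of the chromosome, and peaks of 2 kb or longer were found in K562 more often than shorter ones in every part. Among peaks of 2 kb or longer, 12 of 70 class I peaks were found in K562, or 17.1%, against 28 of 44 in class III, or 63.6% (47.8 to 77.6%), and 73.4% (70.2 to 76.5%) of 790 in the rest of the chromosome. Below 2 kb the shares were 6.67% (1.85 to 16.2%) of 60 in class I, 23.8% (12.1 to 39.5%) of 42 in class III and 40.2% (38.2 to 42.3%) in the rest.

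The RNase A library of NT2 itself also listed few of these peaks. It held 23 of the 130 class I peaks of digest A, or 17.7% (11.6 to 25.4%), and 19 of the 86 class III peaks, or 22.1% (13.9 to 32.3%), against 44.2% (42.4 to 46.0%) in the rest of chromosome 6 and 65.5% over the whole list. With 50% of a peak covered, the shares were 6.92% in class I and 10.5% in class III, and with peaks within 1 kb merged class III was at 37.8%. Class II was at 36.6% (22.1 to 53.1%), and the centromeric flank at 88.0% (68.8 to 97.5%). Of peaks of 2 kb or longer, 28.6% (18.4 to 40.6%) were found in class I, 36.4% (22.4 to 52.2%) in class III and 553 of 790 (66.7 to 73.2%) in the rest of the chromosome. Class I was thus below the rest of the chromosome both in the other cell line and in this second NT2 library.

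**Figure D3:**
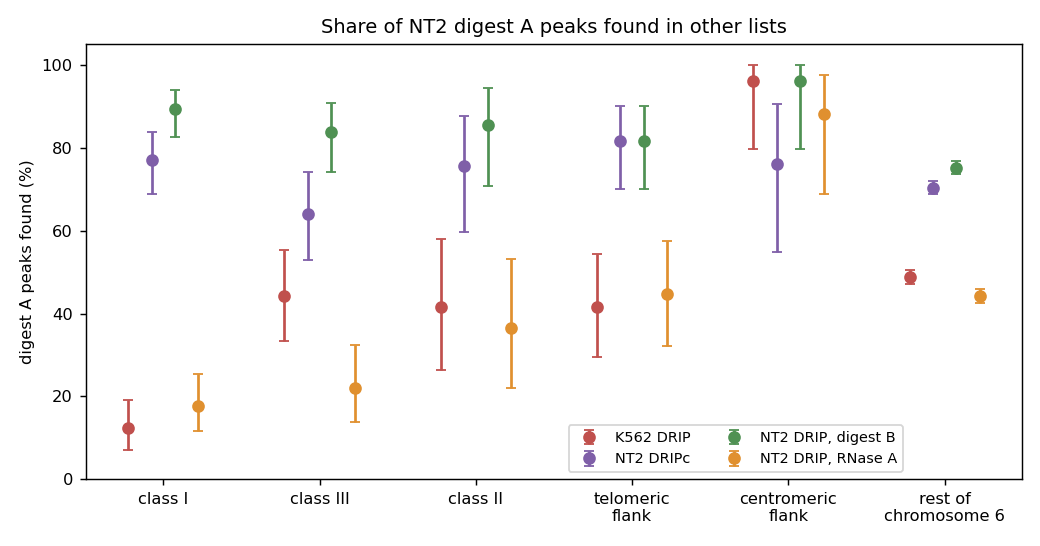
Percent of NT2 digest A peaks that touch a peak of the K562, DRIPc, digest B or RNase A list by at least 1 bp, for each part of the MHC window and for the rest of chromosome 6; bars are exact 95% intervals. Digest B and DRIPc lie between 64.0% and 96.0% throughout, whereas K562 and RNase A fall to 12.3% and 17.7% in class I and stand at 96.0% and 88.0% in the centromeric flank. K562 peaks on haplotype sequences are left out.

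Taking the lists jointly, 99 of the 130 class I peaks of digest A were in neither K562 nor RNase A, or 76.2% (67.9 to 83.2%), against 39.3% (37.5 to 41.0%) in the rest of chromosome 6 and 24.7% over the whole list. Of these, 71 were present in both digest B and DRIPc, which is 54.6% (45.7 to 63.4%) of all class I peaks, against 18.4% (17.1 to 19.9%) in the rest of the chromosome and 9.43% over the whole list. Only 8 class I peaks were found in K562, DRIPc, digest B and RNase A together, or 6.15% (2.69 to 11.8%). In class III this core held 14 of 86 peaks, in class II 14 of 41 and in the centromeric flank 17 of 25, against 30.2% of the whole list. Class III differed in another share. There, 24 of 86 peaks were in K562 and not in RNase A, or 27.9% (18.8 to 38.6%). That share was 16.5% (15.2 to 17.9%) in the rest of the chromosome and 9.74% over the whole list. K562 covered 16.9% of class III and RNase A 6.45%, and the share was not adjusted for this. With peaks within 1 kb merged in each list, K562 held 43.2% of class III peaks and RNase A 37.8%.

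Within the telomeric flank and near the centromeric end, the counts found changed over short distances, in bins of 250 kb drawn after the values were seen. Between 28 and 28.25 Mb, 14 of 21 digest A peaks were found in K562 and 13 in RNase A, while between 28.75 and 29 Mb these counts were 2 and 1 of 13. None of the 13 peaks between 30 and 30.25 Mb was found in K562 and 1 in RNase A. At the other end, K562 held 6 of 17 peaks between 33 and 33.25 Mb, 12 of 17 in the next bin and 17 of 18 between 33.5 and 33.75 Mb. RNase A held 4, 10 and 17 of the same peaks. Digest B held 16 of 17, 13 of 17 and 18 of 18 there. The longest run of consecutive digest A peaks missing from K562, singled out after its values were seen, was 40 peaks at chr6:28953112-30251536. The longest run missing from RNase A was 15 peaks at chr6:30528575-30590477, and that missing from digest B was 6 peaks at chr6:31971936-32050825.

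Most K562 peaks of the window were also listed in NT2. Of 158 such peaks, 148 touched a peak of some NT2 list, or 93.7% (88.7 to 96.9%), against 77.8% (76.0 to 79.5%) in the rest of chromosome 6 and 81.6% over the whole list. With digest A alone the share was 86.1% (79.7 to 91.1%), against 63.1% (61.1 to 65.1%) in the rest and 67.3% over the whole list. NT2 lists other than RNase H covered more of the window than of the rest, and these shares were not adjusted for it. Class I held 21 K562 peaks, of which 20 touched digest A, class III 38, of which 37 did, and class II 25, of which 22 did. The single class I peak of K562 in no NT2 list lay at chr6:29941881-29942801 and was 0.921 kb long, and that of class III at chr6:31872927-31874210 was 1.28 kb long. In class II all 25 touched an NT2 peak. The longest such peaks of the window were in the flanks, at chr6:33586261-33588249 (1.99 kb) and chr6:28599577-28600962 (1.39 kb).

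Seen from the other lists, sharing with the digests was higher in the window than in the rest of chromosome 6, without adjustment for cover. Sharing with RNase A was lower than with the digests and below the whole list share for each. It was below the rest of the chromosome for digest B peaks only. Of 158 K562 peaks, 113 touched a DRIPc peak, or 71.5% (63.8 to 78.4%), against 56.0% in the rest of chromosome 6 and 50.4% over the whole list. A digest B peak met 134 of them, or 84.8%, against 62.9% in the rest and 66.0% over the whole list, and an RNase A peak 87, or 55.1% (47.0 to 63.0%), against 47.2% and 63.0%. Of 323 DRIPc peaks, 275 touched digest B, or 85.1% (80.8 to 88.8%), against 46.3% in the rest and 54.5% over the whole list. RNase A met 117 DRIPc peaks, or 36.2% (31.0 to 41.7%), against 22.0% in the rest and 39.8% over the whole list, and in class I it met 24 of 116. Of 232 digest B peaks, 175 touched DRIPc, or 75.4%, against 76.9% in the rest and 69.7% over the whole list. Digest A met 196 of the digest B peaks, or 84.5%, against 66.3% and 70.9%, and RNase A met 79, or 34.1%, against 39.2% and 60.3%.

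The few RNase A peaks of class I touched K562 less often than those of the rest of chromosome 6. Of 28 such peaks, 9 touched K562, or 32.1% (15.9 to 52.4%), against 58.3% (55.9 to 60.6%) in the rest of chromosome 6 and 52.4% over the whole list, while 21 of 25 did in class III and 11 of 13 in class II. Over the window, 106 of 128 RNase A peaks touched digest B, or 82.8%, against 68.0% in the rest and 64.8% over the whole list. DRIPc met 95 of them, or 74.2%, against 61.0% and 53.3%, and digest A met 108, or 84.4%, against 71.6% and 65.7%. In the centromeric flank these counts were 22, 20 and 24 of 35.

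After RNase H almost nothing was listed in the MHC. The 3 peaks lay at chr6:33601998-33605103 (3.11 kb), chr6:29302326-29302845 (0.520 kb) and chr6:33606096-33606477 (0.382 kb). The longest and the shortest touched the same digest A peak of the centromeric flank and were also met by K562 and RNase A peaks, while the one near 29.3 Mb touched no other list. Hence 1 of 347 digest A peaks was found after RNase H, or 0.288% (0.00730 to 1.60%), against 1.91% (1.45 to 2.46%) in the rest of the chromosome and 5.09% over the whole list. With the limit for a count of 0 set at 3 counts of the total, which is lower than the exact interval's upper end, none of the 130 peaks in class I was found, which allows a share of up to 2.31%, none of the 86 in class III, which allows up to 3.49%, and none of the 41 in class II, which allows up to 7.32%.

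The longest R-loop regions of class I differed in which lists held them. The longest, after the touching peaks of K562, DRIPc, digest B, RNase A and digest A were merged, lay at chr6:30244874-30278202 (33.3 kb) and was present in all 5 lists. It contained the longest minus strand DRIPc peak of the class, at chr6:30252615-30276098 (23.5 kb). The next, at chr6:30561819-30590477 (28.7 kb), was present in K562, DRIPc and both digests and had no RNase A peak. The third, at chr6:31115867-31144136 (28.3 kb), had no K562 peak and was present in the 4 NT2 lists; it contained the longest plus strand DRIPc peak of class I, at chr6:31127233-31137992 (10.8 kb). The longest digest A peaks of class I with no K562 peak, at chr6:30623041-30634669 (11.6 kb) and chr6:30513343-30522613 (9.27 kb), were both present in digest B and DRIPc and absent from RNase A.

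In class III the 3 longest merged regions were present in all 5 lists and carried DRIPc peaks on both strands. They lay at chr6:31912123-31951036 (38.9 kb), chr6:31618493-31650765 (32.3 kb) and chr6:32127736-32159537 (31.8 kb). The longest DRIPc peak of the plus strand in class III was at chr6:31593213-31608520 (15.3 kb) and that of the minus strand at chr6:32134877-32145059 (10.2 kb), and K562, RNase A and both digests had a peak at each. The longest digest A peaks of class III without a K562 peak on chromosome 6 itself were shorter than those of class I. They lay at chr6:31608451-31614920 (6.47 kb) and chr6:31845446-31851688 (6.24 kb), and of this pair the shorter alone had an RNase A peak. The longer overlapped a K562 peak of the dbb haplotype once that was placed, as described below, at chr6:31612038-31626990.

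In class II the 3 longest merged regions, at chr6:33159150-33184345 (25.2 kb), chr6:33230829-33250241 (19.4 kb) and chr6:32935509-32952618 (17.1 kb), were present in all 5 lists. The longest plus strand DRIPc peak of the class, at chr6:32936651-32952336 (15.7 kb), lay within the last of these. The longest minus strand DRIPc peak, at chr6:32794602-32804308 (9.71 kb), had a digest A and a digest B peak and none in K562 or RNase A. The longest digest A peaks of class II that K562 lacked lay at chr6:32860329-32865275 (4.95 kb) and chr6:33161332-33165118 (3.79 kb), and RNase A lacked them too. Between 32.25 and 32.75 Mb, by contrast, digest A listed 2 peaks in all and K562 and RNase A none.

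The flanks held the longest merged region of the whole window, at chr6:33635731-33681336 (45.6 kb), present in all 5 lists, as was the next at chr6:33737236-33762396 (25.2 kb). The third, at chr6:28864368-28886604 (22.2 kb), lacked only RNase A and carried a single strand of DRIPc, with a minus strand peak at chr6:28867658-28882913 (15.3 kb). The longest plus strand DRIPc peak of the flanks lay at chr6:28112550-28125074 (12.5 kb) and was met by all other lists except RNase H. Long digest A peaks without K562 in the flanks stood next to class I, at chr6:29589118-29597121 (8004 bp) and chr6:29570980-29577665 (6686 bp).

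Merging the 5 lists gave 247 separate regions in the window. Of these, 112 came from a single list and were short, with a median of 647 bp, and 40 were in all 5 lists, with a median of 13728 bp. A long merged region can gather more lists through its length alone. Regions in all 5 lists made up 12 of 49 in class III, 6 of 35 in class II and 7 of 77 in class I. The most frequent pattern in class I was DRIPc with both digests and neither K562 nor RNase A, seen at 20 of its 77 regions, against 6 of 49 in class III and 6 of 35 in class II. In the centromeric flank the most frequent pattern was RNase A alone, at 10 of 22 regions.

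Long stretches of the window had no R-loop peak in any list. The longest, singled out after their values were seen, lay at chr6:28957560-29215355 (257.8 kb) and chr6:29302846-29541996 (239.2 kb), both in the telomeric flank, and at chr6:32352563-32550711 (198.2 kb) in class II. In K562 the longest empty stretch was chr6:28892810-29941880 (1049 kb), and others lay at chr6:32158798-32935713 (776.9 kb) and chr6:30883754-31495873 (612.1 kb). The longest empty stretch of digest A was chr6:28957560-29555340 (597.8 kb).

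DRIPc peaks of the MHC lay more often on the minus strand. Of 323 peaks, 142 were plus strand peaks and 181 minus strand peaks, a plus share of 44.0% (38.5 to 49.6%), against 52.8% (51.4 to 54.1%) in the rest of chromosome 6 and 52.3% over the whole list. By part, 45 of 116 peaks in class I were on the plus strand, or 38.8% (29.9 to 48.3%), 32 of 72 in class III, or 44.4% (32.7 to 56.6%), and 25 of 48 in class II, or 52.1% (37.2 to 66.7%). The interval of class I lay below that of the rest of the chromosome, and those of class III and class II included its share. These intervals take no account of neighbouring peaks sharing a strand. With peaks within 1 kb merged, the plus share rose to 43.9% of 82 in class I and 48.1% of 231 in the window, which is close to 50%. The share of merged peaks in the rest of the chromosome was not computed, so the contrast with it was not measured for merged peaks. Among the longest 50% of peaks it was 37.9% and 40.7%. The intervals of the 3 classes overlapped one another. In covered length, plus strand peaks made up 121.5 kb and minus strand peaks 180.4 kb of class I, 84.4 and 105.9 kb of class III and 70.8 and 64.1 kb of class II. Minus strand peaks were somewhat longer, with window medians of 1638 bp for plus and 2016 bp for minus strand peaks, against 1833 and 1872 bp in the rest of the chromosome.

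**Figure D4:**
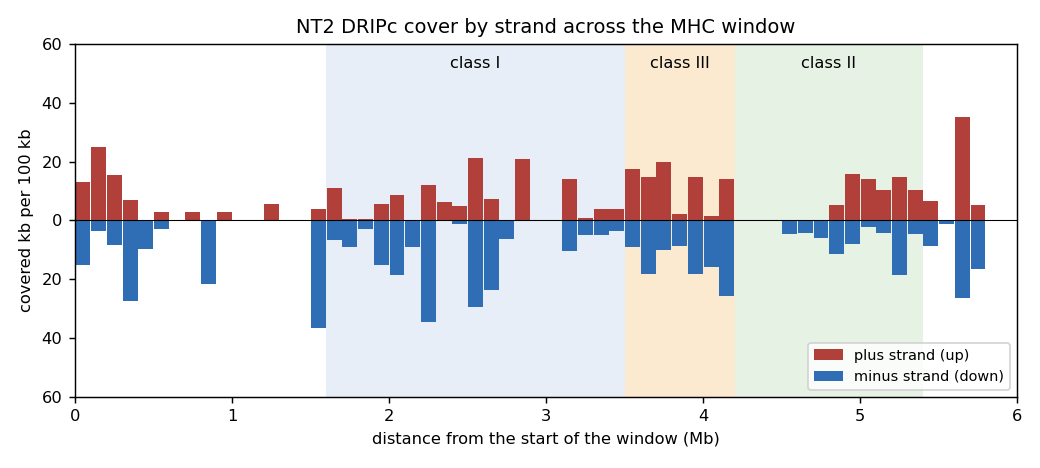
Length covered by NT2 DRIPc peaks in kb per 100 kb, plus strand upward and minus strand downward, against distance from the start of the MHC window in Mb, with the 3 classes shaded. Minus strand cover is 180.4 kb and plus strand cover 121.5 kb in class I, and both strands are filled side by side in class III.

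Hybrids on both strands were common in the window. Of the length covered by DRIPc, 10.4% was covered on both strands, against 2.40% in the rest of chromosome 6 and 3.99% over the whole list. The share was 7.60% in class I, 15.1% in class III, 10.1% in class II and 21.8% in the centromeric flank. DRIPc peaks covered 14.1% of the window and 23.6% of class III, against 8.54% of the rest. Overlap of the strands is easier where cover is higher, and these shares were not adjusted for it. Seen from digest A, 48 of 347 peaks had DRIPc peaks of both strands, or 13.8% (10.4 to 17.9%), against 6.11% (5.29 to 7.02%) in the rest of the chromosome and 6.68% over the whole list. Longer peaks can meet both strands more readily, and this was not adjusted for length. A minus strand peak alone was found at 122 digest A peaks, or 35.2% (30.1 to 40.4%), against 28.7% in the rest and 26.3% over the whole list, and a plus strand peak alone at 88, or 25.4% (20.9 to 30.3%), against 35.5% in the rest and 28.5% over the whole list. In class II the order was turned round, with 14 peaks touched by the plus strand alone and 7 by the minus strand alone, of 41.

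Neighbouring DRIPc peaks often shared a strand. Read along the window, the 323 peaks fell into 114 runs of 1 strand, with a median of 2 peaks a run, and 46 runs were a single peak. Runs were not counted in the rest of chromosome 6 or in a random order, so this number has no baseline. The longest minus strand run held 15 peaks at chr6:29910548-30034297 in class I. The longest plus strand run held 8 peaks and spanned 102.0 kb at chr6:31506521-31608520 in class III; another of 8 peaks spanned 33.9 kb of class I at chr6:30859475-30893388. Minus strand runs of 10 peaks lay at chr6:32072322-32131654 in class III and at chr6:32148075-32861730 across the border of class III and class II, and another at chr6:29541997-29600167 in the telomeric flank. The run across the border spanned 713.7 kb with 37.9 kb of peaks and included 388.7 kb without a DRIPc peak.

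The K562 list also placed 511 peaks, with a median length of 1393 bp, on 7 alternate haplotype sequences of chromosome 6, which are alternate assemblies of the MHC in the hg19 build. The haplotype named apd held 32 peaks, cox 95, dbb 71, mann 61, mcf 73, qbl 92 and ssto 87. Together they covered 1138 kb, counting each sequence on its own, while K562 peaks on the chromosome itself covered 397.0 kb of the window. The longest were 15.0 kb on dbb, 14.9 kb on mann and 14.9 kb on mcf. The NT2 lists hold no such sequences.

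To see where these peaks would fall, each haplotype was laid over chromosome 6 with the 1 shift, in steps of 500 bp, at which most of its peaks touched a digest A peak. At that shift 30 of 32 apd peaks touched digest A, or 93.8%, and 64 of 73 mcf peaks did, or 87.7%; the lowest share was 67.8% for ssto. At shifts more than 200 kb away the share reached at most 56.3% for apd and between 44.6% and 50.7% for the others. The shift was chosen to give the highest share, so these values describe the placement and are no test, and a single shift ignores insertions and deletions between haplotypes. The 3 longest haplotype peaks then fell at chr6:31612038-31626990, chr6:31620370-31635269 and chr6:31621195-31636081, in class III. Of the 511 placed peaks, 169 fell in class I, 235 in class III and 73 in class II.

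**Figure D5:**
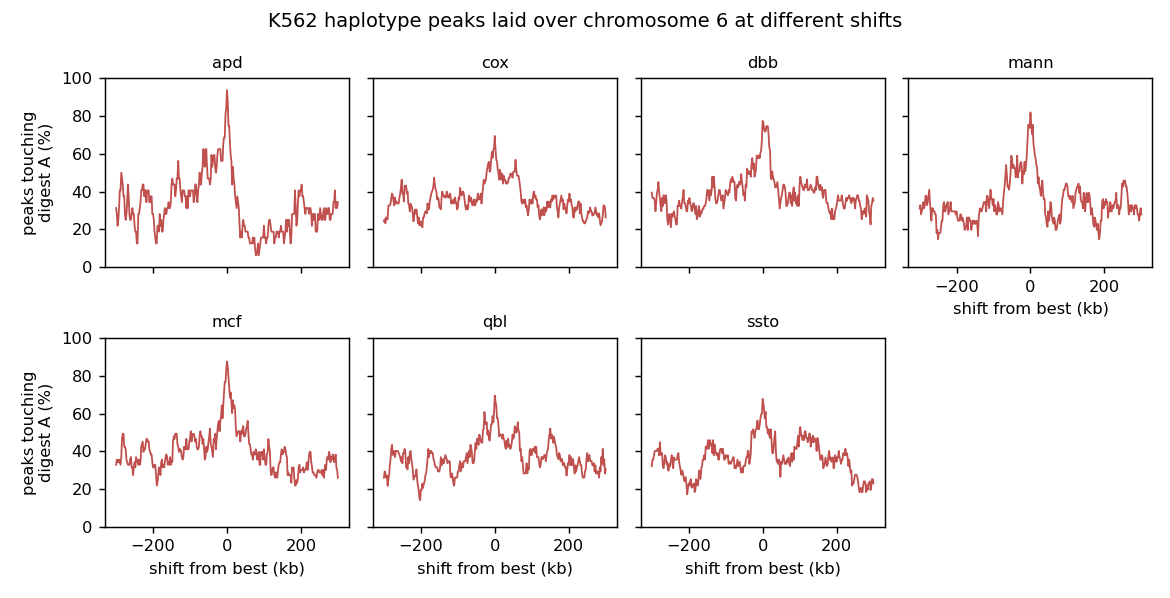
Percent of K562 peaks on each chromosome 6 haplotype sequence that touch an NT2 digest A peak, against the shift in kb from the shift with the highest percent, 1 panel a haplotype. Each curve has its highest point at 0, from 67.8% for ssto to 93.8% for apd.

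Placed this way, haplotype peaks of K562 met many of the NT2 peaks that K562 lacked on the chromosome itself. With them added, 47 of 130 class I peaks of digest A were found in K562, or 36.2% (27.9 to 45.0%), against 16 without them. In class III 66 of 86 were found, or 76.7% (66.4 to 85.2%), against 38, and in class II 26 of 41, against 17. In class I all 16 peaks found on the chromosome were also met by a placed haplotype peak, as were all 38 in class III. Each shift was chosen to maximise touches with these same digest A peaks, so the digest A counts are no support for the placement. Of the 114 class I peaks absent from the chromosome list, 31 were met on at least 1 haplotype, 17 on at least 2 and 7 on at least 3, and of 48 in class III these counts were 28, 14 and 2. Digest B peaks were not used to choose the shift. They come from the same cells, however, and 196 of 232 in the window touched digest A, so they are no independent check. Of 86 digest B peaks in class I, 30 were found with the haplotypes and 14 without them. For DRIPc peaks the counts were 37 of 116 and 24, against 32.0% of the whole DRIPc list found in K562. Placed haplotype peaks covered 7.66% of class I and 44.2% of class III. How many peaks such cover would meet at other shifts was not measured. Class I remained the lowest of the 3 classes with the haplotypes added.

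The placed haplotype peaks spanned chr6:28564531-33571885. Of the 284 digest A peaks inside this span, 27.8% were found in K562 and 22.9% (18.1 to 28.2%) in RNase A. Of the 63 peaks of the window outside it, 68.3% (55.3 to 79.4%) were found in K562 and an equal 68.3% in RNase A. Digest B held 86.6% (82.1 to 90.4%) inside and 85.7% (74.6 to 93.3%) outside, and DRIPc 72.2% (66.6 to 77.3%) and 84.1% (72.7 to 92.1%). The RNase A list carries no haplotype peaks. The part of the haplotype sequences in these low shares was not tested.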

How the data were processed

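The 6 human lists were read as deposited by the authors: coordinates of each peak (its start and its end), with a strand for each DRIPc peak and no height, fold or p-value. BWA 0.6.1, TopHat2 2.0.5 and Bismark 0.7.7 are named in the submitters' processing notes without a role, and hg19 among the builds; for the peak caller, threshold and control, the sources used here say nothing. The 3 mouse lists were not used.

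The window, the class borders and the lists were chosen with earlier results of these data known. A peak counted as found when at least 1 bp touched the other list, strand ignored. Unless haplotypes are named, K562 peaks are those on chromosome 6 itself, and a peak missing from K562 is missing there. Such a touch is easier where the other list covers more of the length, and shares were not adjusted for this. Covered length excluded overlaps within a list. The rest of chromosome 6 ran to the last position of any human list. Named regions are, for each class and for the flanks, the 3 longest merged regions, the 2 longest digest A peaks missing from K562, the 2 longest K562 peaks in no NT2 list and the longest DRIPc peak of each strand, with the 3 longest RNase H and haplotype peaks. No hg19 genome or annotation was used here, so no gene is named at a peak and no sequence is printed. Bins, stretches without peaks, runs of missing peaks and the haplotype shifts were added after the values were seen. Alternatives were 50% cover of a peak, the longest 50% of each list, peaks within 1 kb merged, base pairs in place of peaks, peaks wholly inside a part, and digest B in place of digest A. Depth is unknown. With 1 list a group, p-values were not calculated. Intervals came from scipy 1.17.1. The overlap function recovered a planted share of 40.25% of 2000 simulated digest A peaks as 40.25%, and bedtools 2.31.1 gave the same count in all 5 comparisons of digest A with another list. Tables were handled with pandas 2.3.3 and numpy 2.4.6 under Python 3.11.15, and matplotlib 3.10.9 drew the plots. Positions are counted from 1.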

Additional observations from a re-analysis of the deposited data

Results flagged for a closer look

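The K562 list places 511 peaks on alternate haplotype sequences of chromosome 6, which no NT2 list holds. They stand out as a signal outside the chromosome 6 peaks on which the main comparisons rest; 388 of them, or 75.9%, touched a digest A peak of NT2 once each sequence was placed by the shift chosen to maximise that count.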

How the results depend on the processing

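Of 96 alternatives to 20 results, 67 left the value inside its counting interval and 29 took it outside. This tally does not measure robustness. For cover, each base counted as a draw, so the interval was very narrow and every alternative fell outside it. In small classes the intervals were wide: the class II share found in K562 stayed inside when it went from 41.5% to 29.3% with 50% cover. With 50% of a peak required to be covered, K562 held 25.6% of digest A peaks in the window, 6.15% in class I and 24.4% in class III. The same requirement gave 21.0%, 6.92% and 10.5% for RNase A, and 81.8% of the window for digest B. With peaks within 1 kb merged, RNase A held 37.2% of the window and 37.8% of class III, and digest B 80.9% and 73.0%. Counted in base pairs, RNase A held 26.0% of the window and 10.3% of class I. The K562 haplotype peaks were an alternative chosen after seeing the data, and they were placed by shifts fitted to digest A. With them, K562 held 56.2% of the window, 36.2% of class I, 76.7% of class III and 63.4% of class II. Cover of the window, class I, class III and class II by the longest 50% of digest A peaks was 15.2%, 17.7%, 39.3% and 8.97%, with merged peaks 17.1%, 19.8%, 43.2% and 10.0%, and with digest B in place of digest A 19.7%, 23.0%, 44.7% and 12.1%. Class I had the lowest share found in K562 and in RNase A, class III the highest cover, and class I the lowest plus strand share under every alternative run for them, while the order of class III and class II in K562 changed with 50% cover, base pairs or the longest peaks. The plus strand share of class II went below 50% among the longest DRIPc peaks, at 45.8%. Class I had the highest share found in digest B as reported and the lowest in base pairs, at 84.6%. The causes were not tested. With 1 list a group no replicate could be left out, unknown depth limits every missing peak, and haplotypes placed by 1 shift are approximate. No paired analysis was possible because the lists carry no replicate numbers and the 2 DRIPc samples share 1 list.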
